A study of Mus musculus with 10 samples.

Results

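The 10 genes described here encode ubiquitin ligases, or the substrate-recognition subunits of such ligases, that have been linked to loss of skeletal muscle mass: Trim63, Fbxo32, Fbxo31, Fbxo30, Fbxo21, Fbxo40, Mul1, Traf6, Cblb and Nedd4. They were taken as a list of names out of 26180 curated RefSeq genes. All 10 were found in the annotation. For each gene, the peaks counted were those whose midpoint lay in the gene body or within 30 kb of a transcription start site (TSS). The study addressed where the glucocorticoid receptor (GR) and the lysine-specific demethylase LSD1 were bound in muscle chromatin, and how food deprivation altered this.

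Chromatin immunoprecipitation followed by sequencing (ChIP-seq) was performed on skeletal muscle of wild-type C57BL/6J mice, described in the title of the study as male, with free access to food or after 24 h without food. The labels of all libraries state an age of 10 weeks. Another age appears where the study describes its ChIP-seq results. Antibodies were directed against GR, LSD1, and histone H3 mono- or dimethylated on lysine 9 (H3K9me1 and H3K9me2), the marks that LSD1 can remove. With input chromatin in each condition this gave 10 libraries, and the 8 antibody libraries each had a deposited list of peaks. Every group comprised 1 library, so no difference between conditions had a replicate check, and no test across conditions was possible. Whole skeletal muscle was used, so that nuclei other than those of myofibers contributed chromatin to every list. The extraction protocol in the labels of each library opens with 1 of 2 codes, whose meaning is not stated. The fed and starved GR libraries carried the same code, as did the fed and starved LSD1 libraries. For H3K9me1 and H3K9me2 the codes differed between fed and starved muscle, so that condition and code cannot be told apart.

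Protein breakdown in a wasting muscle proceeds largely through the ubiquitin-proteasome system, in which an activating enzyme, a conjugating enzyme and a ligase act in turn, and the ligase selects the substrate. Trim63 (MuRF1) is a RING ligase of the sarcomere and Fbxo32 (atrogin-1) an F-box protein that brings substrates to a cullin-based SCF ligase; transcripts of both are classically raised by fasting and by glucocorticoids, which act through GR. GR binds a palindromic DNA element, the glucocorticoid response element (GRE), whereas FoxO factors, which are also active in fasted muscle, bind another short element.

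The sequences below are shown because they are the matches to the GRE, written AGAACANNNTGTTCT, with at most 1 mismatch in GR peaks of the 10 genes. Both strands were searched, and capitals mark the arms of the palindrome. Substitutions are given with the base of the GRE, its position counted from 1 at the 5′ end of the element, and the base found, and each sequence is the plus strand of GRCm38.
Trim63, promoter, chr4:134314911-134314925, A1T: ctggctcTGAACAgtcTGTTCTtgtttac
Fbxo32, 4.61 kb upstream, chr15:58219496-58219510, T13G: ttctgcaAGAACAggcTGTGCTcttaacc
Fbxo31, intron, chr8:121563188-121563202, A3G: tgggcccAGGACAcagTGTTCTagaaacc
Nedd4, intron, chr9:72717347-72717361, T13G: ctccgcaAGAACAgtaTGTGCTtgatcac
Nedd4, intron, chr9:72722770-72722784, T12A: agtggacAGAACAcctTGATCTtcaggac
No exact GRE was found in a GR peak of these genes. The Trim63 match lay in peaks of all 4 GR and LSD1 lists, and the Fbxo31 match in both GR peaks and the LSD1 fed peak. The first Nedd4 match lay in the GR peaks of both conditions. The second Nedd4 match lay in a GR fed and an LSD1 fed peak, and the Fbxo32 match in a GR fed peak alone.

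GRE-like sequences were present in 5 of the 44 GR fed peaks of the 10 genes (11.4%, 95% Clopper-Pearson interval 3.79 to 24.6%), against 2.17% of all GR fed peaks. They were present in 3 of the 86 GR starved peaks (3.49%, interval 0.725 to 9.86%), against 0.712% of all GR starved peaks. These intervals cover counting error only, and neighbouring peaks of a gene are not independent. A match is a description of the sequence and not evidence of binding to it.

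The promoter of Trim63 is shown in full because its GRE-like sequence and a FoxO element are adjacent. The sequence runs from 250 bases before to 50 bases after the start (RefSeq, GRCm38.p6, chr4:134314870-134315169, plus strand), with the arms of the GRE and the FoxO element in capitals.
Trim63 promoter: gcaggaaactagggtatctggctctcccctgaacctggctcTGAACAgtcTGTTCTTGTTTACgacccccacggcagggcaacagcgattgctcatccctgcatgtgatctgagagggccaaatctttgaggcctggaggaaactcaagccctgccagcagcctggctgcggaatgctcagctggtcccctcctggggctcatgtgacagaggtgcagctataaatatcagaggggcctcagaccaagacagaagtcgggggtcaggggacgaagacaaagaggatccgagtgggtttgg
The FoxO element, searched as GTAAACA on both strands and found here on the minus strand, begins at the base after the GRE-like sequence and does not overlap it (chr4:134314926-134314932). A GRE-like sequence was found in 0.164% of 32851 RefSeq promoters of this length and the FoxO element in 3.65%. Among the 11 promoter entries of 9 of the genes, Trim63 alone held either element. Fbxo32 had no entry. None of the 11 held the palindrome GCGCATGCGC, bound by the factor NRF1, which was found in 0.971% of the 32851 promoters.

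GR peaks were called at every one of these genes in both conditions. All 10 had a GR fed peak, against 43.1% of all genes, and all 10 a GR starved peak, against 66.5%. LSD1 fed peaks were present at 8 of the 10 (background 51.1%), all but Fbxo21 and Traf6, and LSD1 starved peaks at 10 (background 83.7%). The deposited LSD1 starved list is far longer than the number of peaks in the study's text, and longer than the fed list where that text has it shorter, so every LSD1 starved count here holds for the list as deposited. H3K9me2 fed peaks were present at all 10, but this list covered 95.5% of all genes. In starved muscle H3K9me2 peaks were found at Fbxo31 and Fbxo30 only, 2 of 10 against 10.2%. H3K9me1 peaks were present at 7 genes in fed muscle (background 38.0%) and at 6 in starved muscle (background 65.6%).

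**Figure D1:**
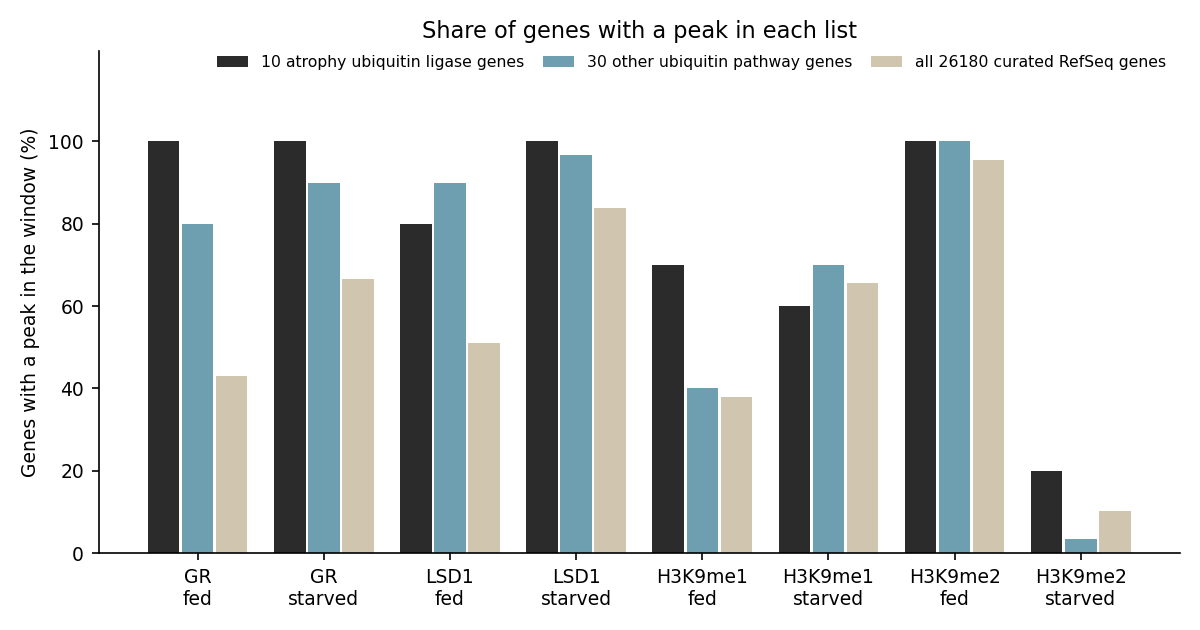
Share of genes, in percent (vertical axis), with at least 1 peak in each of the 8 lists (horizontal axis), for the 10 atrophy ligase genes, 30 other genes of the ubiquitin pathway and all 26180 genes. The ligase genes stand at 100% in both GR lists, where all genes stand at 43.1% and 66.5%, while the H3K9me2 fed bars all lie above 95%.

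The lists differed in length and in the strength of their weakest peaks. The GR list held 14108 peaks in fed and 37783 in starved muscle, and the LSD1 list 16616 and 66332. Of these, 70.4% and 34.7% of GR peaks and 45.5% and 10.2% of LSD1 peaks had a q-value (the false discovery rate assigned by the peak caller) of at most 0.01. When only such peaks were counted, 9 genes had a GR fed peak (background 33.6%) and 8 a GR starved peak (background 40.6%). Traf6 lacked both, and Fbxo21 lacked the starved one. For LSD1 the numbers were 6 in fed (background 32.4%) and 5 in starved muscle (background 24.0%).

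The labelled tissue was checked with marker genes. Among 6 muscle genes (Acta1, Ckm, Des, Myh4, Tnnt3 and Atp2a1) 3 had a GR fed and 4 a GR starved promoter peak, and 4 had an LSD1 promoter peak in each condition, where the shares of all genes in the same order were 13.4%, 23.3%, 22.4% and 16.2%. Of 10 marker genes of liver, fat and immune cells, 0 had a promoter peak in these 4 lists. Within the whole window, the 4 lists had peaks at all 6 muscle genes, and at 3 of the 10 others for GR in fed muscle, 5 for GR in starved muscle, 3 for LSD1 in fed muscle and 9 for LSD1 in starved muscle. In that order the shares of all genes were 43.1%, 66.5%, 51.1% and 83.7%, so the LSD1 starved list hardly set the muscle genes apart.

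Peak numbers differed widely among the 10 genes. The GR fed list gave 11 peaks at Nedd4, 10 at Fbxo31, 7 at Trim63, 5 at Cblb, 4 at Fbxo32, 2 at Fbxo30 and at Mul1, and 1 at Fbxo21, Fbxo40 and Traf6. The windows of Cblb (206.5 kb) and Nedd4 (117.5 kb) are the longest, since both genes are large, whereas that of Trim63 spans 60.0 kb. Per 10 kb of window, GR fed peaks were densest at Fbxo31 (1.67) and Trim63 (1.17), and the 10 windows together held 0.531 per 10 kb, against 0.106 over all genes. In starved muscle the order changed: Fbxo32 had 2.46 GR peaks per 10 kb, Trim63 2.33 and Fbxo31 2.0, against 1.04 over the 10 windows and 0.289 over all genes. This order holds for all listed peaks. With a q-value of at most 0.01 the GR starved peaks numbered 9 at Trim63, 7 at Fbxo31 and 7 at Fbxo32, over windows of 60.0, 60.0 and 69.0 kb. As many GR starved peaks as the 17 at Fbxo32 were seen at 0.623% of all genes. As many GR fed peaks as the 10 at Fbxo31 were seen at 0.267%. Of these 10, 7 lay nearest to the TSS of Fbxo31 itself.

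**Figure D2:**
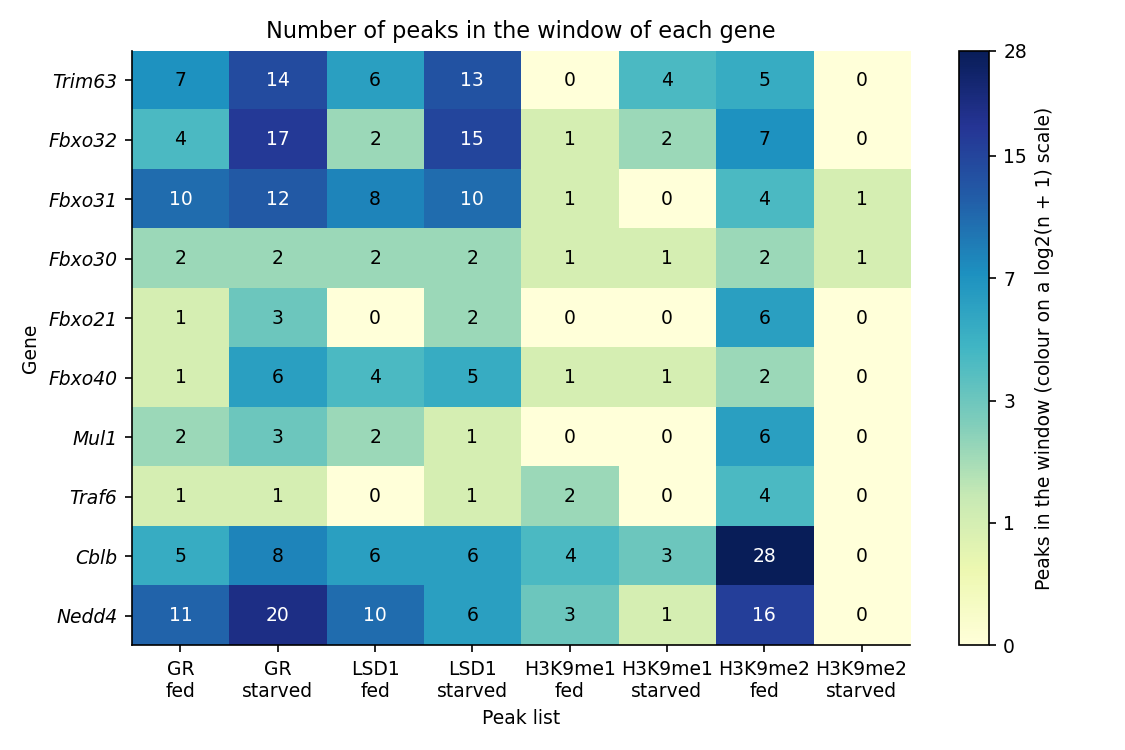
Number of peaks in the window of each gene (rows) in each of the 8 lists (columns), with colour on a log2(n + 1) scale. Trim63, Fbxo32, Fbxo31, Cblb and Nedd4 hold most GR and LSD1 peaks, the count at Fbxo32 is 4 in GR fed and 17 in GR starved muscle, and the H3K9me2 column goes from 2 to 28 in fed to 0 or 1 in starved muscle.

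The GR and LSD1 peaks of the 4 lists formed 135 sites once overlapping peaks were joined. Of these, 89 were called in 1 list, 19 in 2, 14 in 3 and 13 in all 4. No shares over the genome were computed for the counts by number of lists or by place, so they describe these genes only. The 13 sites called in all 4 lists comprised 5 promoter, 3 intronic, 1 exonic and 4 upstream sites. Of the 13, 5 lay in the window of Fbxo31, among them a site nearest to 1700030M09Rik and a site nearest to Map1lc3b. In all, 71 sites were intronic, and 106 lay nearer to the TSS of the ligase gene than to that of any other gene. The remaining sites lay closer to neighbours, such as Pdik1l and Slc30a2 around Trim63, Map1lc3b and 1700030M09Rik around Fbxo31, Polq beside Fbxo40 and Camk2n1 beside Mul1.

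GR and LSD1 coincided at most of the genes. Overlapping GR and LSD1 peaks were found at 8 genes in fed (background 29.5%) and at 6 in starved muscle (background 27.7%). An LSD1 peak of the same condition overlapped 25 of the 44 GR fed peaks (56.8%, 95% Clopper-Pearson interval 41.0 to 71.7%, background 48.3%) and 23 of the 86 GR starved peaks (26.7%, interval 17.8 to 37.4%, background 14.7%). Within the promoter, taken as 1000 bp upstream to 100 bp downstream of a TSS, 6 genes had a GR fed peak (background 13.4%) and 8 a GR starved peak (background 23.3%). LSD1 promoter peaks were present at 8 genes in fed (background 22.4%) and at 4 in starved muscle (background 16.2%). With a q-value of at most 0.01 LSD1 promoter peaks were present at 4 genes in fed and 2 in starved muscle. With a fold of at least 5 they were present at 1 and 0, and GR promoter peaks at 1 and 2. When any base of a peak was counted in place of its midpoint, GR promoter peaks were present at 8 genes in fed and 10 in starved muscle. LSD1 promoter peaks were then present at 8 and 5. No share of all genes with a promoter peak was computed under these settings, and the backgrounds above do not apply to them. GR and LSD1 promoter peaks occurred together at 6 genes in fed (background 9.34%) and at 4 in starved muscle (background 9.18%). Trim63, Fbxo32, Fbxo31 and Fbxo30 had a promoter peak in all 4 lists, 4 of 10 against 4.15% of all genes. Trim63, Fbxo32 and Fbxo31 are genes that the study itself presented as targets on these libraries, so their places here are not independent evidence.

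**Figure D3:**
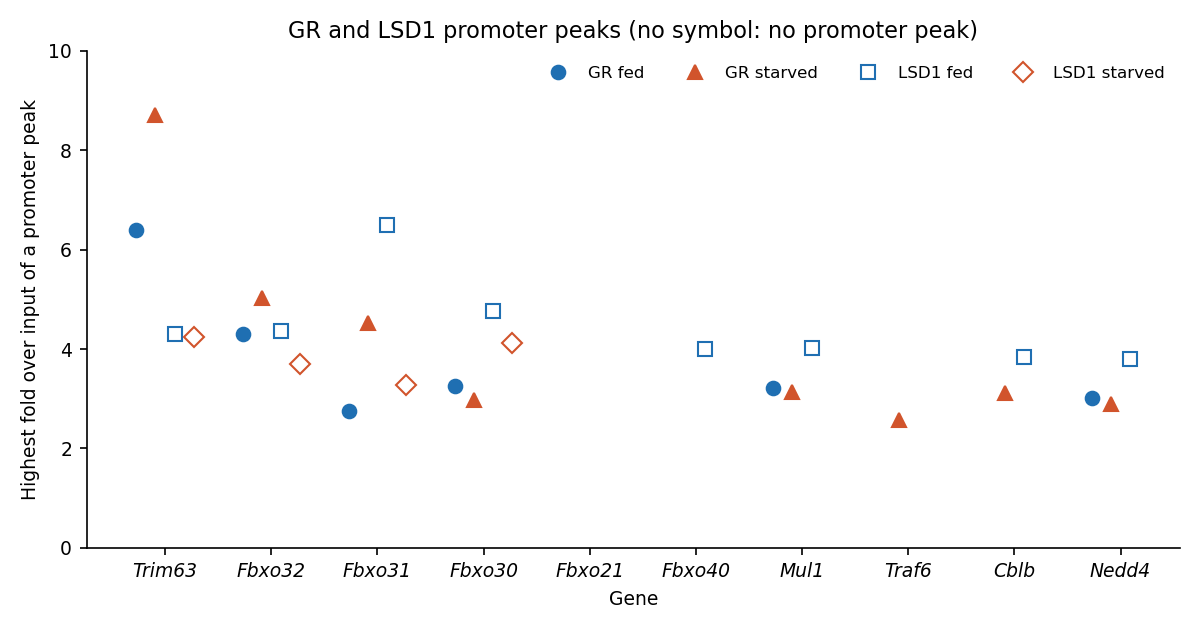
Highest fold enrichment over input of a promoter peak (vertical axis) at each gene (horizontal axis) in the GR lists (filled symbols) and the LSD1 lists (open symbols), with fed libraries in blue and starved libraries in orange. The GR symbols of Trim63 stand at 6.40 and 8.70, above those of the other genes, and LSD1 starved symbols are present at 4 genes.

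Trim63 (chr4:134315120-134329629, plus strand) had the highest promoter folds of GR among these genes. Its GR promoter peak had a fold enrichment over input of 6.40 in fed muscle (chr4:134314752-134315090, q = 1.322e-22) and 8.70 in starved muscle (chr4:134314336-134315789, q = 3.027e-53). LSD1 was called at the same place with folds of 4.29 and 4.24. An additional LSD1 fed peak of fold 3.93 lay 0.89 kb upstream (chr4:134314178-134314291).

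Further GR sites of Trim63 lay within 8 kb upstream of the TSS, and at each of those called in both lists the fold was higher in the starved list. At 7.5 kb upstream the fold was 3.27 in fed and 7.44 in starved muscle, at 4.6 kb 5.99 and 11.04, and at 3.32 kb 3.65 and 5.32. The starved value at 4.6 kb (chr4:134310058-134310985, q = 1.102e-63) exceeded that of 99.942% of all GR starved peaks. LSD1 was called at this site with folds of 4.29 in fed (q = 0.005683) and 3.36 in starved muscle (q = 0.05972). The study also measured this site by ChIP and quantitative PCR, on other muscle samples and with primers that match its sequence. It reported GR there as unaffected by food deprivation, and LSD1 as raised at first and then lowered. The higher GR fold in the starved list rests on 1 library per condition. A further site 14.8 kb upstream, nearer to Pdik1l, had GR folds of 5.64 and 5.80 and LSD1 folds of 4.69 and 4.54.

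The stretch of 171 bases common to the 4 peaks of the site 4.6 kb upstream of Trim63 is shown because it carried the highest GR starved fold of the gene without a GRE-like sequence (GRCm38, chr4:134310311-134310481, plus strand). It held 0 copies of an exact arm of the GRE, so that no base is capitalized.
Trim63, 4.6 kb upstream: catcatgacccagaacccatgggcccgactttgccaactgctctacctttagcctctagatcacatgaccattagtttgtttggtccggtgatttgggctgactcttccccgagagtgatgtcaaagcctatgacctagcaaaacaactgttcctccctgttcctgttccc
The best alignment to the GRE within the whole site had 4 mismatches.

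GR was also called in starved muscle at places with low folds. The window of Trim63 held 8 sites with a GR starved and no GR fed peak, of fold 2.58 to 3.19, most of them within or just downstream of the gene. The GR starved list is the longer over the genome (37783 against 14108 peaks), and no genome-wide share of such sites was computed. At an intronic site 4.29 kb downstream of the TSS the fold was 3.87 in fed and 2.99 in starved muscle, the reverse of the upstream sites.

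Fbxo32 (chr15:58175879-58214892, minus strand) had the largest difference in the number of GR peaks, with 4 in fed and 17 in starved muscle. Its promoter was called in all 4 lists, with GR folds of 4.30 in fed (chr15:58214955-58215321, q = 3.281e-07) and 5.02 in starved muscle (chr15:58214754-58216658, q = 6.07e-14) and LSD1 folds of 4.36 and 3.70. Of the GR sites, 3 were present in both conditions and 14 in starved muscle alone. Over the whole lists 9287 of the 14108 GR fed peaks were overlapped by 1 or more of the 37783 GR starved peaks. The share of all GR starved peaks without a fed counterpart was not computed, so the 14 are not shown to be particular to this gene. The 14 had folds of 2.32 to 3.44, and nearly all lay in introns. LSD1 peaks at Fbxo32 numbered 2 in fed and 15 in starved muscle. With a q-value of at most 0.01 GR peaks numbered 2 and 7 in fed and starved muscle, and LSD1 peaks 1 and 4. The upstream site with the GRE-like sequence had GR folds of 3.00 and 3.57.

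**Figure D4:**
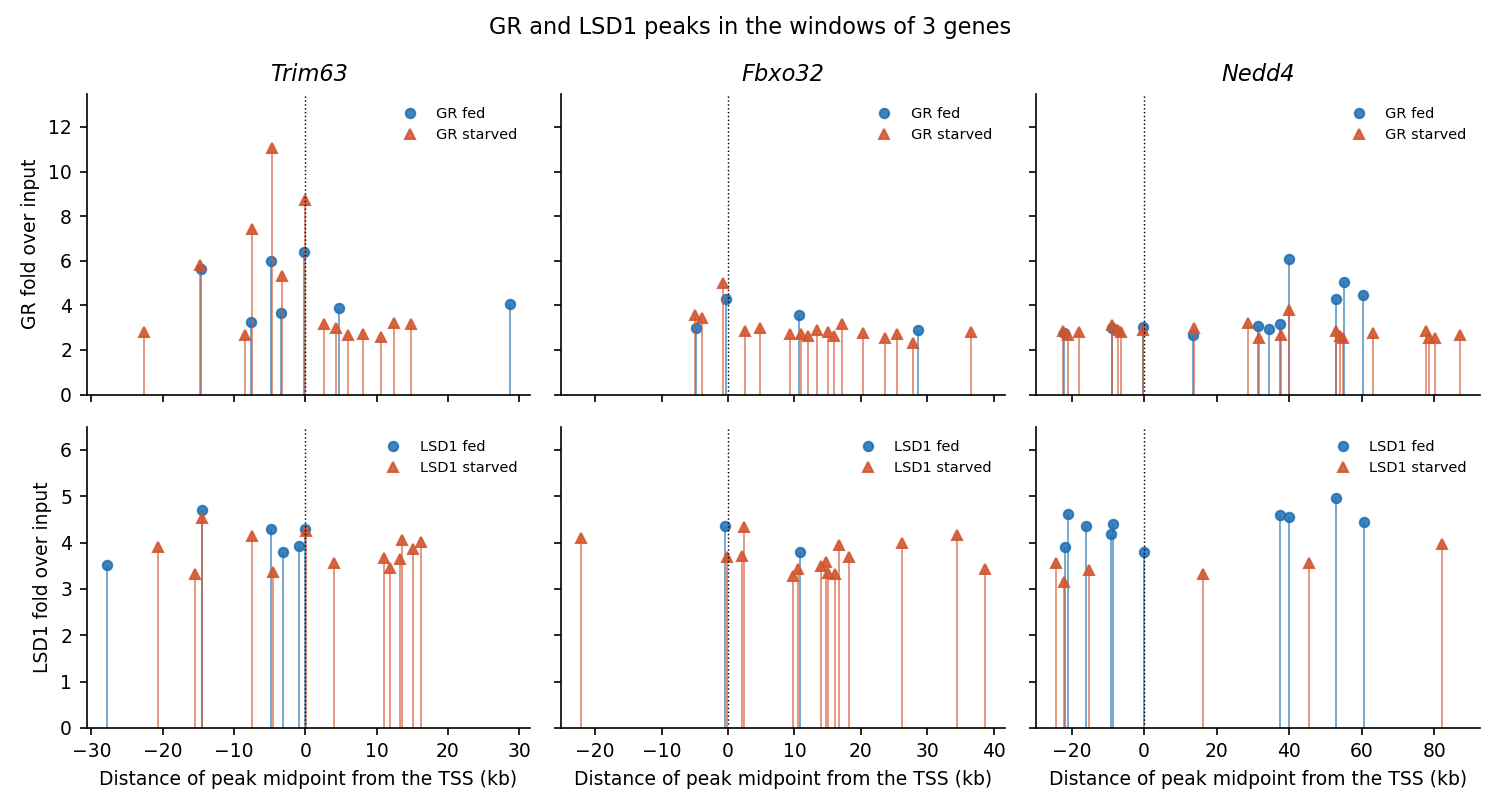
Fold enrichment over input (vertical axis) of each GR peak (upper row) and LSD1 peak (lower row) against the distance of its midpoint from the TSS in kb (horizontal axis; for Nedd4 the start farthest upstream) at Trim63, Fbxo32 and Nedd4, with fed peaks as blue circles and starved peaks as orange triangles. Upstream of Trim63 the starved GR peaks reach 11.04 where the fed ones reach 5.99. At Fbxo32 the starved GR peaks in the gene body stay at or below 3.16. At Nedd4 the fed GR peak at 6.07 has a starved counterpart at 3.81.

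Fbxo31 (chr8:121549443-121578806, minus strand), an F-box protein known for directing cyclin D1 to degradation, held the highest GR fold of the 10 genes. At an intronic site 15.4 kb downstream of the TSS the GR fold was 11.7 in fed (chr8:121562961-121563440, q = 1.072e-70) and 11.7 in starved muscle (chr8:121562933-121563910, q = 6.23e-88). This site contained the GRE-like sequence given above and had LSD1 folds of 4.22 and 3.43. The promoter region was covered by a single broad GR starved peak (chr8:121577783-121581140, fold 4.53) and by separate GR fed peaks of fold 2.75 and 6.05. LSD1 had its highest fold among the 10 genes there in fed muscle (6.496, chr8:121579073-121579302), where the overlapping starved peak had a fold of 3.27. A second intronic site 5.53 kb downstream had GR folds of 4.84 and 6.25.

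The other F-box genes were more sparsely occupied. Fbxo30 (chr10:11281330-11297969, plus strand), also called MUSA1, had a promoter site in all 4 lists, with GR folds of 3.25 (chr10:11280874-11281207) and 2.98 (chr10:11280723-11281342) and LSD1 folds of 4.76 and 4.12. Its strongest GR site, 6.68 kb upstream, had folds of 4.17 (chr10:11274484-11274812) and 3.08 (chr10:11274499-11274756). Fbxo40 (chr16:36963461-36990467, minus strand), which directs the insulin receptor substrate IRS1 to degradation, had its strongest GR site at the start of the gene, with folds of 3.68 (chr16:36989381-36990704) and 3.58 (chr16:36989385-36990744). Both GR peaks ran across the TSS, but their midpoints lay too far downstream for these to count as promoter peaks. Fbxo40 had LSD1 promoter peaks in fed muscle only, of folds 3.99 (chr16:36990164-36990606) and 3.68 (chr16:36991221-36991542). Fbxo21 (chr5:117976770-118010198, plus strand) had no promoter peak in the 4 lists by peak midpoint. A GR starved peak of fold 2.73 (chr5:117976838-117977020) began within its promoter, with the midpoint 0.16 kb downstream of the TSS. An intronic GR site of Fbxo21, 11.4 kb downstream of the TSS, had folds of 4.41 in fed (chr5:117988059-117988231) and 2.78 in starved muscle (chr5:117988050-117988235).

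Mul1 and Traf6 were the least occupied genes outside the F-box family. Mul1 (chr4:138434672-138442265, plus strand), a ligase of the mitochondrial outer membrane, had a promoter peak with GR folds of 3.21 (chr4:138434660-138434864) and 3.13 (chr4:138434448-138434691) and an LSD1 fed fold of 4.02. Traf6 (chr2:101678420-101701668, plus strand), a ligase of cytokine receptor signalling, had 1 GR peak per condition. The GR fed peak had a fold of 2.95 (chr2:101678600-101678923, q = 0.01132) and the GR starved peak a fold of 2.57 (chr2:101678254-101678567, q = 0.0332). These peaks adjoined without overlapping. The single LSD1 peak at Traf6, in starved muscle, lay 14.7 kb upstream, nearer to Rag1 (fold 4.26, chr2:101663743-101663793).

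Cblb (chr16:52031549-52208047, plus strand), a RING ligase that restrains immune and insulin-like growth factor signalling, had a GR site that in fed muscle was second in fold only to that of Fbxo31. The site lay in an intron 63.2 kb downstream of the TSS. Its GR folds were 11.6 in fed (chr16:52094609-52095026, q = 3.478e-52) and 10.1 in starved muscle (chr16:52094528-52095023, q = 4.186e-48). An LSD1 fed peak of fold 4.52 overlapped it, and no LSD1 starved peak did. The sequence closest to a GRE in this site had 3 mismatches (A3T, T13C and T15C) and is shown, on the plus strand, because the site was among the strongest without a match at the chosen limit.
Cblb, intron: agtaaaaAGTACAgacTGTCCCaggacaa
The promoter site of Cblb had GR folds of 3.67 (chr16:52031276-52032104) and 3.11 (chr16:52031094-52032062) and LSD1 folds of 3.84 and 3.56. The midpoints of the GR fed peak and of the LSD1 starved peak lay too far downstream for these to count as promoter peaks.

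Nedd4 (chr9:72662331-72749851, plus strand), a HECT ligase of membrane proteins with a pair of annotated starts, had the most GR peaks of the 10 genes in either condition, 11 in fed and 20 in starved muscle. Intronic sites downstream of its second start had higher GR folds in fed than in starved muscle. At 9.06 kb from that start the folds were 6.07 (chr9:72702211-72702495, q = 4.197e-19) and 3.81 (chr9:72702190-72702525, q = 1.062e-07). At 21.8 kb they were 4.29 and 2.84, and at 24.0 kb, the site of the first GRE-like sequence of Nedd4, 5.04 and 2.52. The site of its second GRE-like sequence, 29.5 kb from that start, had a GR fed fold of 4.45 and an LSD1 fed fold of 4.44, and was in neither starved list. The promoter of Nedd4 had GR folds of 3.01 (chr9:72661865-72662454) and 2.89 (chr9:72661769-72662390) and an LSD1 fed fold of 3.80. LSD1 peaks at Nedd4 numbered 10 in fed and 6 in starved muscle, and 8 of the former and 0 of the latter had a q-value of at most 0.01.

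GR sites of the 10 genes present in fed muscle were mostly present in starved muscle as well, as over the whole list. Of 44 GR fed peaks, 35 were overlapped by a GR starved peak (79.5%, 95% Clopper-Pearson interval 64.7 to 90.2%), against 65.8% of all GR fed peaks. For LSD1 it was 12 of 40 (30%, interval 16.6 to 46.5%), against 23.1% of all LSD1 fed peaks. Each genome-wide share lay within the interval of the 10 genes. The LSD1 share was 15% with a q-value of at most 0.01 in both lists, and 15% with lists of equal length. With a fold of at least 5 it was 0.0%, and the GR share 62.5%. No genome-wide shares were computed at these limits.

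In the paired GR peaks the starved fold exceeded the fed fold in 15 of 35 cases, against 21.3% of the 9287 pairs genome-wide. Over all pairs the median ratio of the starved to the fed fold was 0.878, and over the 35 it was 0.974. A limit of 1.5 times, chosen after the values had been seen, was reached upwards in 3 of 35 pairs (background 0.775%) and downwards in 4 of 35 (background 10.6%). The 3 upward pairs were the Trim63 sites at 7.5 kb (ratio 2.27, higher than or equal to 99.96% of all pairs) and 4.6 kb upstream (1.84, 99.82%), and an Fbxo31 promoter pair (1.65). At the 4.6 kb site the study's quantitative PCR found GR unaffected by food deprivation, as stated above. The Fbxo31 pair set the weaker of its separate fed peaks against the broad starved peak, and the other fed peak gave a ratio of 0.748. The Trim63 site at 3.32 kb followed with 1.46 and the Trim63 promoter with 1.36, at the 99.06th and 98.46th percentiles. In Trim63 the median ratio over 6 pairs was 1.41, in Fbxo31 0.996 over 9 pairs and in Nedd4 0.853 over 9 pairs. The 4 downward pairs were Fbxo21 (0.630) and 3 intronic sites of Nedd4 (0.628, 0.661 and 0.4999).

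**Figure D5:**
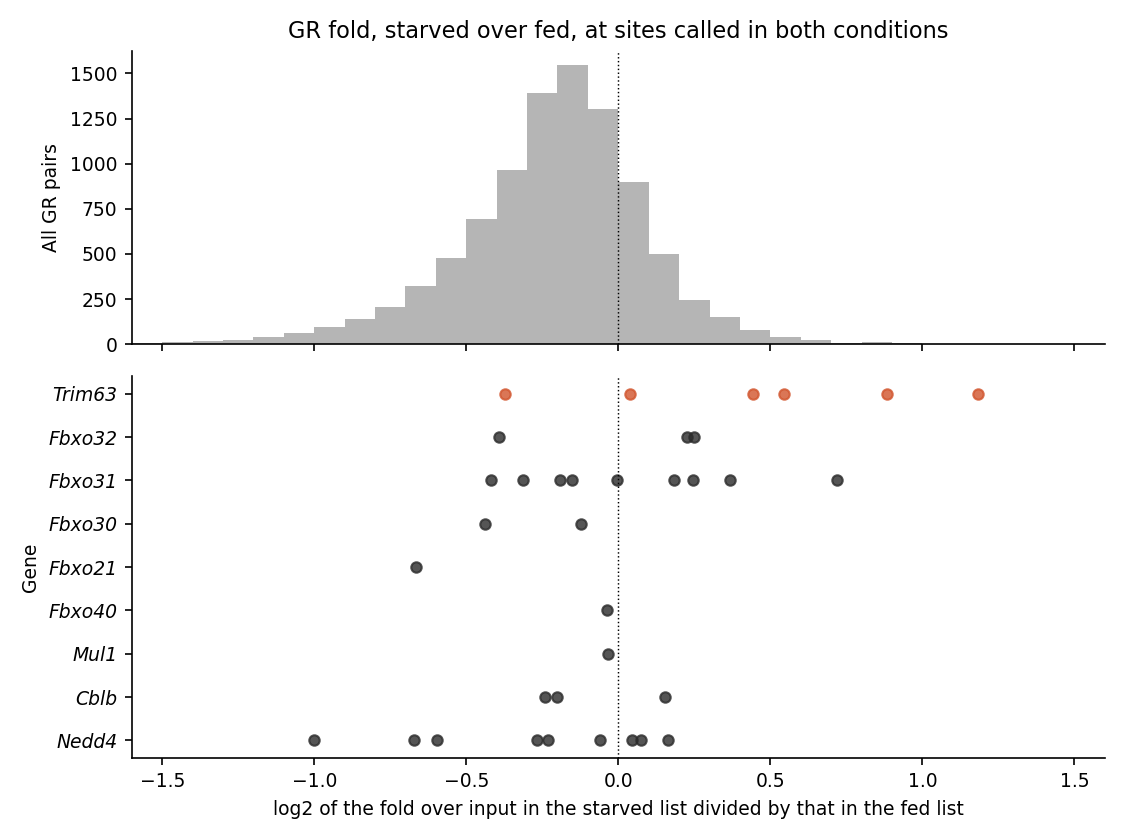
Ratio of the GR fold in starved muscle to that in fed muscle on a log2 scale (horizontal axis) for all 9287 pairs of overlapping GR peaks (upper panel, number of pairs per bin) and for the 35 pairs at the ligase genes (lower panel, 1 point per pair, Trim63 in orange; Traf6 had no pair). Trim63 points reach 2.27 times, where the genome-wide median is 0.878 times, and those of Nedd4 reach down to 0.4999 times.

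For LSD1, the starved fold exceeded the fed fold in 0 of 12 pairs at the 10 genes, an exact upper limit of 26.5%, against 12.7% of all LSD1 pairs. The median ratio was 0.839 over the 12 pairs, and the median over all 3834 LSD1 pairs was 0.854. The lowest ratio was that of the Fbxo31 promoter (0.503), and the highest that of the Trim63 promoter (0.987). In Trim63, where GR ratios were high, the LSD1 ratios were 0.967 at 14.8 kb upstream, 0.784 at 4.6 kb and 0.987 at the promoter.

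The number of peaks at the 10 genes was higher in the starved than in the fed list for both factors, and less so than over the whole lists. GR peaks numbered 44 in fed and 86 in starved muscle (1.95 times), against 2.68 times for the whole list. With a q-value of at most 0.01 they numbered 32 and 42 (1.31 times, against 1.32 times for the whole list). LSD1 peaks numbered 40 and 61 (1.52 times, against 3.99 times), but 20 and 12 with a q-value of at most 0.01 (0.6 times, against 0.899 times). The whole lists are not limited to gene windows. Over the windows of all genes the mean per gene was 0.906 in fed and 2.47 in starved muscle for GR, and 1.18 and 2.77 for LSD1. At the 10 genes the means were 4.4 and 8.6 for GR, and 4.0 and 6.1 for LSD1. The log2 ratio for LSD1 was 0.61 with all peaks and negative with the q-value limit (-0.74), with lists of equal length (-0.51) and within 10 kb of a TSS (-0.22).

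H3K9me2 peaks were numerous in fed muscle and almost absent in starved muscle at these genes, as over the whole genome. There were 80 in fed and 2 in starved muscle (0.025 times, against 0.0386 times for the whole list), and, as stated, the libraries differed in code as well as in condition. The mean per gene was 8.0 in fed and 0.2 in starved muscle at the 10 genes, and 7.12 and 0.155 over the windows of all genes. The fed peaks were short, with a median length of 95 bp, and 54 of the 80 were intronic. Cblb held 28 and Nedd4 16 of them. The highest fold was 4.82, 19.2 kb upstream of Fbxo32 (chr15:58234068-58234126). Trim63 alone had an H3K9me2 promoter peak in fed muscle, of fold 3.11 (1 of 10 genes, background 22.3%). That peak was weak, with a q-value of 0.05169 and a fold at the 10.1th percentile of its list. Its midpoint lay 0.97 kb upstream of the TSS, close to the promoter limit. The 2 starved peaks were of 49 bp each, at an intron of Fbxo31 (fold 4.00) and 11.98 kb upstream of Fbxo30 (fold 4.86).

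H3K9me1 peaks numbered 13 in fed and 12 in starved muscle, whereas the whole list went from 14178 to 38023 (2.68 times), again across libraries that differed in code. The mean per gene was 1.3 and 1.2 at the 10 genes, and 0.562 and 1.41 over the windows of all genes. Trim63 had 0 in fed and 4 in starved muscle, of folds 3.81 to 4.22, and Nedd4 had 3 and 1. Of the 135 GR and LSD1 sites, 11 were overlapped by H3K9me2 fed peaks (8.15%, 95% Clopper-Pearson interval 4.14 to 14.1%, background 7.37% of the 107103 sites formed in the same way over the genome) and 0 by H3K9me2 starved peaks (upper limit 2.7%, background 0.626%). H3K9me1 fed peaks overlapped 0 (upper limit 2.7%, background 0.878%) and H3K9me1 starved peaks 4 (2.96%, interval 0.813 to 7.41%, background 1.7%). All 4 backgrounds lie within these intervals.

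The other genes of the pathway were examined as a list of 30: ubiquitin genes, activating and conjugating enzymes, SCF core subunits, other muscle ligases and deubiquitinases. GR fed peaks were present at 24 and GR starved peaks at 27 of them, LSD1 fed peaks at 27 and LSD1 starved peaks at 29, read against the same backgrounds as above. Overlapping GR and LSD1 peaks were present at 21 in fed and 19 in starved muscle. GR promoter peaks were present at 12 in fed and 23 in starved muscle, and LSD1 promoter peaks at 19 and 12. As at the ligase genes and over all genes, GR promoter peaks were thus more frequent and LSD1 promoter peaks less frequent in the starved lists. H3K9me1 peaks were present at 12 and 21, and H3K9me2 peaks at 30 and 1.

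The strongest GR fed peaks of this list were at Ube2j1 (8.46) and Ube2e1 (8.41), which encode conjugating enzymes, and at the polyubiquitin gene Ubb (8.15). Their highest GR starved folds were 6.84, 8.18 and 7.42. Rps27a, a ubiquitin-ribosomal fusion gene, and Trim32, a ligase of the sarcomere, had no GR peak in either condition. All 3 of the strongest folds lay below the 11.7 of Fbxo31 and the 11.6 of Cblb in fed muscle.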

How the data were processed

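ChIP-seq peak lists were analysed for the 10 atrophy ligase genes. The authors mapped single-end reads to mm10 (GRCm38) and called broad peaks per library with MACS2 against input. Their methods name Bowtie while peak names carry Bowtie2, and name a human-genome blacklist. The labels list bcl2fastq 2.20.0.422. Each deposited list gives a fold enrichment over input (a ratio), −log10 of a p-value, −log10 of a q-value and a score (not used). The highest q-values in the deposited lists were 0.0925 to 0.0998, so lists were less strictly filtered than the methods state. For LSD1 in starved muscle, the deposited list is far longer than the text of the study gives, and the fed-to-starved direction in peak number is the opposite of that text. The list was taken as it stands. Read numbers were not analysed here, so depth is unknown, and a fold carries no error. Inputs entered through the authors' peak calling.

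Groups came from the labels. Genes were 26180 symbols with curated RefSeq transcripts on chromosomes 1 to 19, X and Y (45756 transcripts). Peaks overlapping by at least 1 bp were shared, and a fed peak was paired with the overlapping starved peak of highest fold. Promoter sequences came from RefSeq. Functions were tested on simulated peaks. Shares have exact 95% intervals. Python 3.11.15, pandas 2.3.3, numpy 2.4.6, scipy 1.17.1 and matplotlib 3.10.9 were used. All 10 genes were named, with coordinates for the GR site of highest fold per condition and for promoter sites, sequences for GRE-like matches, and, of the other pathway genes, the 3 with the highest GR fed fold and those without a GR peak. The 171-base Trim63 stretch and the Cblb sequence, and sites named beyond this rule, were chosen after their values were seen. The genes and lists were chosen with earlier results of these data known.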

Additional observations from a re-analysis of the deposited data

How the results depend on the processing

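Each of 22 values was recomputed under those of 13 alternatives that applied to it, giving 178 values, of which 136 kept to within 1.5 times (counts) or the 95% interval (ratios and shares). With only peaks of a fold of at least 5, genes with a peak numbered 4 for GR fed, 4 for GR starved, 1 for LSD1 fed, 0 for LSD1 starved, 0 for H3K9me1 fed, 1 for H3K9me1 starved and 0 for both H3K9me2 lists; overlapping GR and LSD1 peaks were then at 0 genes in both conditions, and the GR log2 ratio was 0.17. With q-values of at most 0.01, genes numbered 5 for LSD1 starved, 3 for H3K9me1 fed, 2 for H3K9me1 starved and 1 for H3K9me2 starved, overlapping starved peaks were at 3 genes, and the log2 ratios were 0.39 for GR and -0.74 for LSD1, a change of direction. With lists cut to equal length, 1 gene had an H3K9me1 starved and 2 an H3K9me2 fed peak, and the log2 ratios were 0.032 for GR, -0.51 for LSD1 (reversed), -3.70 for H3K9me1 and 0.0 for H3K9me2. Within 10 kb of a TSS without the gene body, 6 genes had an LSD1 starved and 0 an H3K9me2 starved peak, and the LSD1 log2 ratio was -0.22 (reversed). Fewer peaks enter under each of these. Apart from GR and LSD1 windows at the q-value limit, given above, no shares of all genes were computed under these alternatives. With no mismatch allowed, 0.0% of GR peaks held a GRE. No log2 ratio could be given for LSD1, H3K9me1 and H3K9me2 at a fold of at least 5 or for H3K9me2 within 10 kb, as a list held 0 peaks there. No paired analysis was possible because every group had 1 library, and for the same reason no library could be left out. Depth is unknown, so whether an uncalled site had too few reads cannot be told.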

Other observations

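The genes whose promoter pattern was closest to that of Trim63, by Euclidean distance over log2(1 + highest promoter fold) in the 4 GR and LSD1 lists, were Klhl38 (0.310), A230028O05Rik (0.421), Mir6338 (0.586), Abra (0.614) and Lrrc30 (0.678). Klhl38 had promoter folds of 5.90 in GR fed, 7.37 in GR starved, 4.75 in LSD1 fed and 3.68 in LSD1 starved, where Trim63 had 6.40, 8.70, 4.29 and 4.24. For Fbxo32 the closest were Fam13a (0.115), Cryab (0.142), Fsd2 (0.149), Hspb2 (0.150) and Camsap1 (0.170). Cryab and Hspb2 have neighbouring starts and shared their GR and LSD1 starved promoter peaks, so they are not separate cases. These distances describe 4 libraries and carry no test.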
